A study of Mus musculus with 12 samples.

Results

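The comparison described here sets TCF-1 cKO against WT donor T cells taken back from transplant recipients at day 7, and follows 9873 protein-coding genes through it. These genes, called the members, are those of 21852 protein-coding genes in the files with a mean of 10 or more CPM (a gene's counts relative to its library's total) in either group. They were chosen by level and not by difference. Of the members, 8438 reached that level in both groups, 1261 in TCF-1 cKO alone and 174 in WT alone. At the edge of the rule, Cyp2c29, Igdcc4 and Ppp1r13b entered with 10.01, 10.02 and 10.02 CPM in their higher group, and Gm13285, Abcc9 and Plcl1 stayed out with 9.997, 9.995 and 9.994 CPM. All members could be tested, and 118 of them belong to lists of T cell receptor, chemokine and cell death genes that were counted but are not described. Those lists were drawn up here and differ from the authors' own. The authors' post-transplant tables of cell death and T cell activation also name genes described below, among them Cd27, Tsc22d3, Ikzf3, Gpr183 and Zbtb32.

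The series holds 12 libraries of mouse T cells, 3 in each of 4 groups, and the 6 Post-Tx libraries make this comparison. TCF-1 cKO mice carry floxed Tcf7 and a Cre recombinase under the Cd4 promoter, so that the deletion reaches every T cell that passed through the stage of Cd4 expression in the thymus and not CD4 T cells alone. WT donors served as the controls, and donor T cells of both genotypes were given to lethally irradiated BALB/c recipients and sorted again from the spleen 7 days later. Both groups therefore share the transplant, the irradiated allogeneic host and the second sort. The labels call the cells CD4 T cells, whereas the methods name CD8 T cells for the Post-Tx sort. Cd4 stood at 1139, 1096 and 1164 CPM in WT and 818, 709 and 856 CPM in TCF-1 cKO, whereas Cd8a did not exceed 15.4 CPM and Cd8b1 45.6 CPM in any of the 6 libraries, as the labels have it. The labels number biological replicates without naming mice, so p values measure the spread between these libraries.

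TCF-1 is a transcription factor with an HMG box that binds DNA alone or with beta-catenin, and it is known in T cells for keeping naive, memory and stem-like states and for favouring follicular helper over effector fates. In graft-versus-host disease donor T cells meet host antigen everywhere at once, divide, change their metabolism, leave or enter tissues and take up effector functions. Genes of membrane traffic, lipid handling, G protein and phosphoinositide signaling, the cytoskeleton and chromatin take part in such state changes beside the T cell receptor genes themselves.

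Total counts ran from 18022093 to 23098887 in the TCF-1 cKO libraries and from 27109156 to 49486745 in the WT libraries, so every TCF-1 cKO library was shallower than every WT library. Tcf7 itself stood at 145, 171 and 159 CPM in WT replicates 1, 2 and 3 and at 109, 139.9 and 146 CPM in TCF-1 cKO replicates 1, 2 and 3. Its log2 fold change was -0.66 (SE 0.22, adjusted p = 0.0669, edgeR's quasi-likelihood test), which does not pass 0.05, and counts over the whole gene need not show the loss of its floxed part. Genotypes are given as labelled. The summed CPM of 9 T cell markers were 9868, 8220 and 8833 in WT and 6472, 6297 and 6545 in TCF-1 cKO, and 8 of the 9 genes were called lower with log2 fold changes over all 9 from -1.17 to -0.26 (median -0.87). All of these markers but Thy1 stood above 300 CPM in WT. Of members at 300 CPM or more in their higher group 22.3% were called lower, with a median of -0.60. Over all 19287 genes tested 3.13% were called lower and 3.52% higher, shares beside which the marker counts here are to be read. For macrophage and monocyte markers the WT libraries held 1918 ± 495 CPM together and those of TCF-1 cKO 2998 ± 167 CPM (mean of sums, SD, n = 3), and none of those 13 genes was called. Erythroid markers held 1000 ± 430 CPM in WT against 3522 ± 2095 CPM in TCF-1 cKO (SD, n = 3), with 5 of 11 genes higher. Cd8a and Cd8b1 together held 27.9 ± 12.4 CPM in WT against 56.6 ± 0.937 CPM in TCF-1 cKO (SD, n = 3), and neither was called. The part of these cells in the results below was not tested, and in bulk samples fewer cells of a type and less RNA per cell cannot be told apart.

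Throughout, CPM are given in the order of replicates 1, 2 and 3, and fold changes are TCF-1 cKO over WT on the log2 scale. The fold changes also use TMM scaling over all genes tested, whose factors were 1.07, 1.23 and 1.15 in TCF-1 cKO and 0.807, 0.963 and 0.851 in WT, so that they lie below the ratio of the CPM. A gene was called at an adjusted p under 0.05 in edgeR's quasi-likelihood test on all 19287 genes tested.

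Of the 9873 members, 389 (3.94%) were called higher in TCF-1 cKO and 572 (5.79%) lower. Over all 19287 genes tested 3.52% were called higher and 3.13% lower. Of the 961 calls 40.5% were higher. Without TCF-1 cKO replicate 2 the counts were 0 higher and 3 lower, and without WT replicate 1 they were 8 and 47. Leaving out WT replicate 3 gave 84 and 125, TCF-1 cKO replicate 3 gave 187 and 140, and WT replicate 2 gave 767 and 1207. Only the fit without TCF-1 cKO replicate 1, with 381 and 573, stayed near the counts of all 6 libraries. The members that entered through TCF-1 cKO alone gave 217 of the calls higher and 0 lower, a direction that their way of entry favours, and those that entered through WT alone gave 0 and 18.

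How the libraries were scaled set the balance of the calls. The median log2 fold change of the members was -0.36 under TMM over all genes tested, -0.04 with TMM over the members alone, -0.08 under upper-quartile scaling and 0.49 when libraries were scaled to the 9 T cell markers, a setting added after the data were seen. With TMM over the members alone 368 members were higher and 98 lower, so that 79% of calls were higher, and over all genes tested 3% and 0.539% were called. Upper-quartile scaling gave 436 and 104 (80.7% higher). Scaled to the T cell markers, 2177 members were higher and 19 lower, and over all genes tested 20.1% and 0.119% were called. A fold change near -0.36 is therefore that of the middle member, and no member changed sign between a call under TMM over all genes and a call under TMM over the members.

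**Figure D1:**
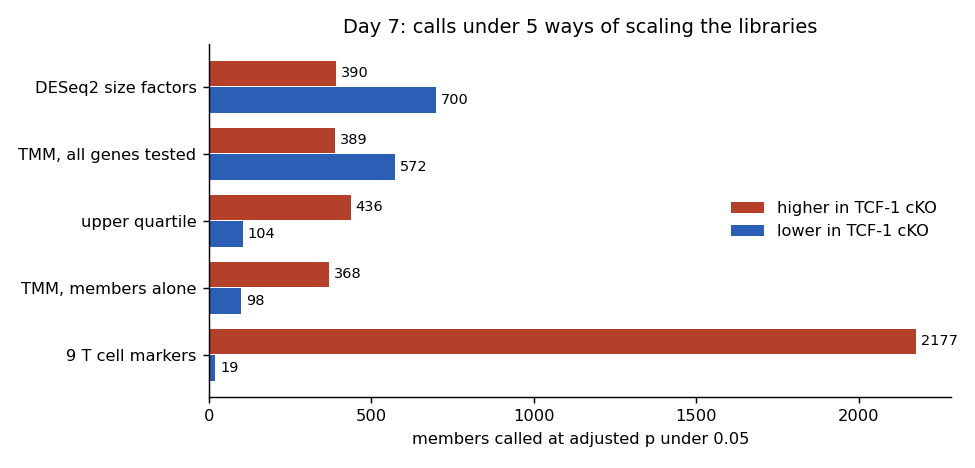
Number of members called higher (red bars) or lower (blue bars) in TCF-1 cKO at an adjusted p under 0.05 in edgeR's quasi-likelihood test, for 5 ways of scaling the 6 libraries. Calls lower range from 700 with DESeq2 size factors to 19 with the T cell markers, and calls higher from 368 to 2177.

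Calls lower lay mostly among strongly expressed genes. Of members whose higher group mean was 10 to 30 CPM, 0.961% were lower, and the share was 5.29% from 30 to 100 CPM, 11.3% from 100 to 300 CPM and 22.3% at 300 CPM or more. The median fold change went from -0.08 in the first of these bands to -0.60 in the last. Calls higher made 4.44%, 4.1%, 2.72% and 3.42% of the same bands. The shares carry both the fold changes and the better precision of larger counts.

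**Figure D2:**
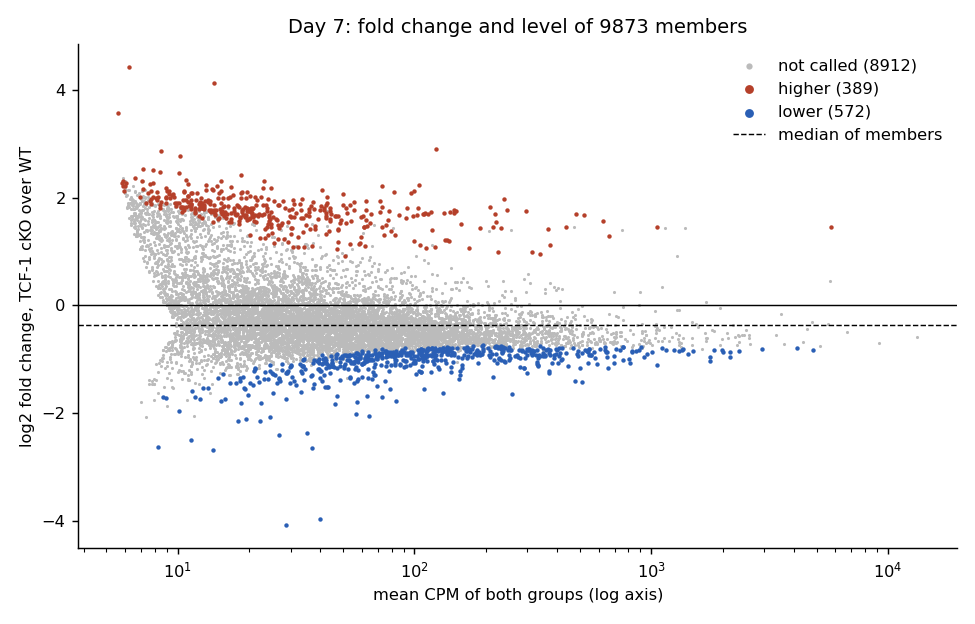
Log2 fold change of TCF-1 cKO over WT (vertical axis) against the mean CPM of both groups (horizontal log axis) for the 9873 members, with 389 called higher in red, 572 called lower in blue and the rest in grey. The dashed line is the members' median of -0.36, and the cloud lies below 0 at higher levels.

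Because of this, falls are described first for the members that were called lower under TMM over all genes, TMM over the members, upper-quartile scaling and T cell marker scaling alike. There were 19, of which 3 (Cxcr5, Ccl5 and Pdcd1) belong to the receptor and chemokine lists. The other 16 were Sostdc1, Angptl2, Pacsin1, Nsg2, Matk, Tox2, Rab4a, Cnbd2, Cdk5rap1, Sdcbp2, Id3, Abca2, Izumo1r, Cd27, Ypel3 and Ifitm1. In none of them did the groups overlap, which being called with 3 libraries in each group favours. Of all 961 called members 898 did not overlap. Sostdc1, Angptl2, Pacsin1, Nsg2, Rab4a and Cdk5rap1 entered the members through WT alone, a way of entry that favours a fall. All 16 were also called with any 1 library left out other than TCF-1 cKO replicate 2. Without that library Sostdc1 and Angptl2 were called and the adjusted p of the 16 reached 0.121, with fold changes from -5.34 to -1.30. They are ordered below by what their products do, an order made after their values were seen and not tested.

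**Figure D3:**
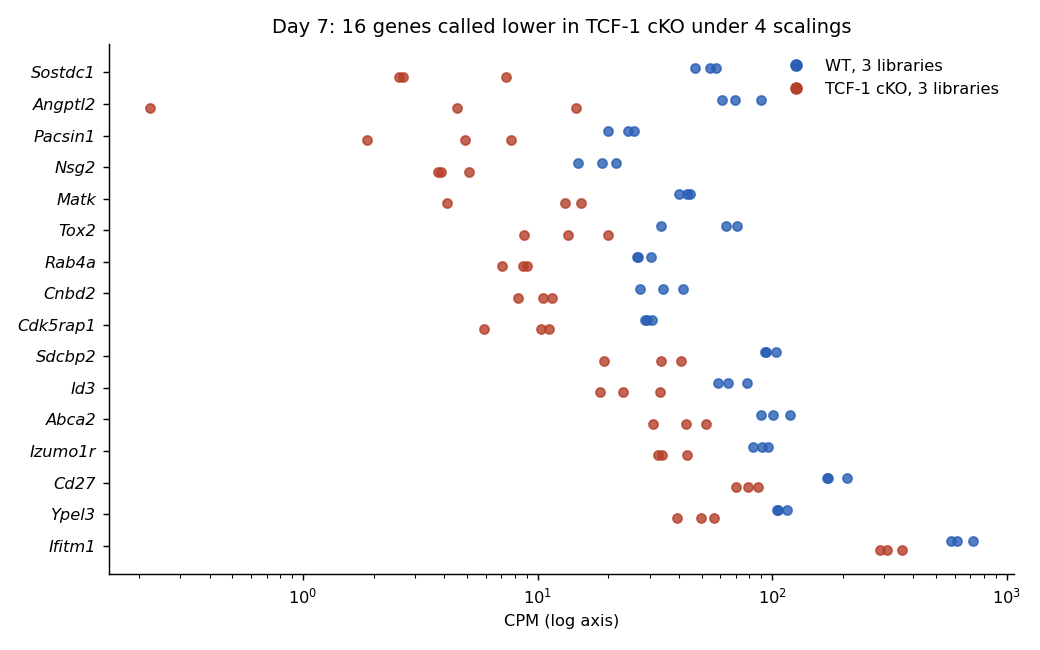
CPM on a log axis of the 16 genes called lower in TCF-1 cKO under 4 scalings, with 1 point for each of 3 WT libraries (blue) and 3 TCF-1 cKO libraries (red). In each gene every red point lies left of every blue point, and Angptl2 has the widest spread, with TCF-1 cKO libraries from 0.223 to 14.7 CPM.

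The 2 steepest falls were in genes of secreted proteins. Sostdc1 (chromosome 12, 36314139 to 36318452 of GRCm38), an extracellular antagonist of BMP and Wnt ligands, stood at 57.6, 54.3 and 46.9 CPM in WT and 2.67, 7.30 and 2.57 CPM in TCF-1 cKO. Its lowest WT library was far above its highest TCF-1 cKO library, and the log2 fold change was -4.08 (SE 0.40, adjusted p = 5.18e-05, edgeR). Angptl2 (chromosome 2, 33216069 to 33247717), which encodes a secreted angiopoietin-like glycoprotein, stood at 89.6, 61.2 and 69.5 CPM in WT and 0.223, 14.7 and 4.56 CPM in TCF-1 cKO. It fell by 3.97 (SE 0.69, adjusted p = 0.0148), and its TCF-1 cKO libraries spread more widely than those of the other 15 genes.

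Pacsin1, Nsg2, Rab4a, Sdcbp2 and Abca2 are described together for their places on membranes, a grouping with no test. In the list of vesicle traffic and exocytosis, which holds none of them, 1 of 22 members (4.55%) was lower against 5.79% of all members, and 0 with TMM over the members alone. The median fold change of that list was -0.60, against -0.36 over all members. At an unadjusted p under 0.05 edgeR's test gave 13 of the 22 lower. DESeq2 at an adjusted p under 0.05 called 10 of them lower, against 17.7% of all members. Pacsin1 (chromosome 17, 27655509 to 27711482), an F-BAR protein that bends membranes in endocytosis and is best known from neurons, stood at 25.7, 20.02 and 24.2 CPM in WT and 4.90, 7.69 and 1.88 CPM in TCF-1 cKO (log2 fold change -2.69, SE 0.47, adjusted p = 0.0148, edgeR). Nsg2 (chromosome 11, 32000463 to 32059202), another protein known from endosomes of neurons, stood at 14.9, 18.8 and 21.6 CPM in WT and at 5.12, 3.87 and 3.75 CPM in TCF-1 cKO. The TCF-1 cKO libraries of Nsg2 lay close together, and it fell by 2.50 (SE 0.44, adjusted p = 0.0148). Rab4a (chromosome 8, 123805985 to 123835287) encodes a small GTPase that returns cargo from early endosomes to the surface. Its CPM were 26.7, 30.3 and 26.6 in WT and 8.63, 9.04 and 7.08 in TCF-1 cKO (fold change -2.15, SE 0.35, adjusted p = 0.00972), and both groups were tight. Sdcbp2 (chromosome 2, 151572622 to 151590005), whose product syntenin-2 holds PDZ domains that bind phosphoinositides, stood at 93.9, 93.3 and 104 CPM in WT and 19.3, 33.6 and 40.8 CPM in TCF-1 cKO (fold change -2.05, SE 0.28, adjusted p = 0.00397). Abca2 (chromosome 2, 25428703 to 25448540), an ATP-binding cassette transporter of lipids in late endosomes and lysosomes, stood at 119, 101 and 89.8 CPM in WT and 31.0, 43.1 and 52.1 CPM in TCF-1 cKO. Its fold change was -1.71 (SE 0.26, adjusted p = 0.00805), and TCF-1 cKO replicate 3 came nearest to WT.

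Nuclear regulators and signaling enzymes made another set. Tox2 (chromosome 2, 163203125 to 163324170), an HMG box factor of follicular helper and exhausted T cells, stood at 33.5, 70.6 and 63.7 CPM in WT and 8.74, 13.5 and 20.1 CPM in TCF-1 cKO (fold change -2.37, SE 0.35, adjusted p = 0.00665, edgeR). WT replicate 1 was the lowest of its group and still above all TCF-1 cKO libraries. Id3 (chromosome 4, 136143497 to 136145755), which keeps E proteins from DNA, stood at 78.3, 58.5 and 64.9 CPM in WT and 33.2, 23.2 and 18.5 CPM in TCF-1 cKO (fold change -1.82, SE 0.31, adjusted p = 0.011). Matk (chromosome 10, 81252935 to 81263365) encodes a kinase related to Csk that phosphorylates the inhibitory tail of Src family kinases. It stood at 44.9, 39.9 and 43.5 CPM in WT and at 4.12, 15.3 and 13.1 CPM in TCF-1 cKO, with TCF-1 cKO replicate 1 the lowest library (fold change -2.41, SE 0.39, adjusted p = 0.00972). Cdk5rap1 (chromosome 2, 154335380 to 154373010), an enzyme that modifies mitochondrial tRNAs, stood at 28.8, 29.3 and 30.6 CPM in WT, within a narrow range, and at 5.90, 10.3 and 11.2 CPM in TCF-1 cKO (fold change -2.10, SE 0.36, adjusted p = 0.011).

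Of the surface proteins in this set, Cd27, a costimulatory receptor of the tumour necrosis factor receptor family, stood at 209, 171 and 174 CPM in WT and 87.4, 70.0 and 79.1 CPM in TCF-1 cKO (chromosome 6, 125232622 to 125237010; fold change -1.62, SE 0.24, adjusted p = 0.00726, edgeR). Izumo1r, the folate receptor 4 known from regulatory and anergic CD4 T cells, stood at 96.1, 82.4 and 90.1 CPM in WT and 43.5, 34.0 and 32.6 CPM in TCF-1 cKO (chromosome 9, 14885814 to 14903949; fold change -1.68, SE 0.26, adjusted p = 0.0085). Ifitm1, a membrane protein induced by interferon, was the most abundant of the 16 per length, at a mean of 1809 TPM in WT and 884 TPM in TCF-1 cKO. In CPM it was 716, 579 and 612 in WT and 308, 289 and 358 in TCF-1 cKO, with no overlap (chromosome 7, 140967221 to 140969825; fold change -1.40, SE 0.23, adjusted p = 0.011). Less is known in T cells of the remaining pair. Cnbd2, which encodes a protein with a cyclic nucleotide binding domain, stood at 27.3, 41.7 and 34.1 CPM in WT and 10.5, 11.6 and 8.26 CPM in TCF-1 cKO (chromosome 2, 156312299 to 156375638; adjusted p = 0.00805). Ypel3, of the yippee-like family, stood at 106, 105 and 116 CPM in WT and 50.0, 39.2 and 56.6 CPM in TCF-1 cKO (chromosome 7, 126776955 to 126780514; adjusted p = 0.00972).

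The letters CTTTGAA or CTTTGAT, the core that TCF/LEF factors bind, were looked for on both strands, thus also as TTCAAAG or ATCAAAG, from 250 bases before to 50 bases after gene starts in RefSeq windows of GRCm38.p6. Of the 16 genes 13 had a window and 3 of those held the letters, against 9.88% of all 27025 genes with a window. They were in 44 of 447 matched members called lower (9.84%), 37 of 299 called higher (12.4%) and 513 of 7115 not called (7.21%). The 30 bases around the letters in Tox2, Cdk5rap1 and Cd27 are shown because these 3 of the 16 falls carry them. Each is written 5′ to 3′ on the strand of its gene, with the letters in capitals, and a match is a string of letters and not a measured binding site. The windows are chr2:163225302-163225331 on the plus strand for Tox2, chr2:154372843-154372872 on the minus strand for Cdk5rap1 and chr6:125236995-125237024 on the minus strand for Cd27. In Tox2 and Cdk5rap1 the letters begin 140 and 142 bases before the RefSeq start of the window, and in Cd27 they lie after it. The Tox2 window belongs to an alternative start inside the gene, downstream of the gene start given above, and the window of Cdk5rap1 also lies inside the span given above.
Tox2: gatggatttggATCAAAGaggttaaataac
Cdk5rap1: cggctttatttTTCAAAGccagggtcctgg
Cd27: ccacaactgccTTCAAAGgtcggtttacca

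Outside the receptor, chemokine and cell death lists drawn up here, 61 further members were lower under TMM over all genes, TMM over the members and upper-quartile scaling but not when scaled to the T cell markers. Those named in the next paragraphs were picked from them after their values were seen. Cell polarity and junction genes known mainly from epithelia were among them. Marveld2 (tricellulin) stood at 20.5, 23.5 and 24.3 CPM in WT and 7.63, 8.65 and 10.7 CPM in TCF-1 cKO (log2 fold change -1.73, adjusted p = 0.0209, edgeR). It entered the members through WT alone. Llgl1, a polarity protein of the lethal giant larvae family, stood at 78.5, 83.3 and 90.6 CPM in WT and 45.1, 41.8 and 42.6 CPM in TCF-1 cKO. In both genes the groups were apart, and Llgl1 fell by 1.36 (adjusted p = 0.0154, edgeR).

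Other genes of the 61 had varied roles. Pde2a, a phosphodiesterase that degrades cAMP and cGMP, stood at 125, 124 and 114 CPM in WT and 43.0, 19.8 and 75.1 CPM in TCF-1 cKO (log2 fold change -1.78, adjusted p = 0.0205, edgeR). WT libraries of Pde2a were close to each other, while those of TCF-1 cKO were spread widely. Zfp36l2, which binds AU-rich mRNA and speeds its decay, stood at 41.6, 93.3 and 115 CPM in WT and 28.2, 29.3 and 36.3 CPM in TCF-1 cKO, so that WT replicate 1 lay just above the TCF-1 cKO libraries (fold change -1.79, adjusted p = 0.015). Tsc22d3, the glucocorticoid-induced leucine zipper protein, stood at 138, 239 and 236 CPM in WT and 69.7, 94.2 and 146 CPM in TCF-1 cKO. Its groups overlapped, since TCF-1 cKO replicate 3 exceeded WT replicate 1, at a fold change of -1.37 (adjusted p = 0.0205). Klrc1, which encodes the lectin-like receptor NKG2A, overlapped too, at 38.6, 101 and 118 CPM in WT and 16.4, 23.4 and 43.3 CPM in TCF-1 cKO (fold change -2.01, adjusted p = 0.0176).

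Lipid and organelle genes in the same set included Lpcat4, which rebuilds phospholipids, at 428, 346 and 379 CPM in WT and 234, 185 and 215 CPM in TCF-1 cKO (log2 fold change -1.26, adjusted p = 0.0176, edgeR). Atp8b2, a phospholipid flippase, fell by 1.29 (adjusted p = 0.0205) and Pex16, which peroxisomes need for their membranes, fell by 1.35 (adjusted p = 0.0192). Neither overlapped, with Pex16 at 80.5, 73.1 and 58.5 CPM in WT and 34.6, 33.5 and 41.7 CPM in TCF-1 cKO. Transcription factors included Zbtb32, a repressor of lymphocyte activation, at 60.5, 39.7 and 38.6 CPM in WT and 17.3, 23.7 and 20.1 CPM in TCF-1 cKO (fold change -1.61, adjusted p = 0.0186). Ikzf3, the Ikaros family factor Aiolos, fell by 1.23 (adjusted p = 0.0209), and its groups were apart. Vax2, a homeobox factor of eye development, stood at 29.0, 23.7 and 27.7 CPM in WT and 9.36, 8.996 and 11.9 CPM in TCF-1 cKO (fold change -1.82, adjusted p = 0.019).

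By rule, Maged2 and Coq8a were also among the 15 steepest and steadiest falls, though neither was called with TMM over the members alone (adjusted p = 0.0909 and 0.0589, edgeR). Maged2, which regulates ion transport and belongs to the MAGE family, stood at 10.7, 21.1 and 9.15 CPM in WT and 0.278, 4.13 and 4.34 CPM in TCF-1 cKO. It entered the members through WT alone. Coq8a, needed for coenzyme Q synthesis, stood at 43.2, 39.7 and 28.7 CPM in WT and 5.07, 6.48 and 23.7 CPM in TCF-1 cKO, where replicate 3 came near WT. Their fold changes under TMM over all genes were -2.62 (SE 0.69, adjusted p = 0.0372) and -2.06 (SE 0.47, adjusted p = 0.0254).

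Functions were then followed through 25 gene lists with 546 members. Of these 3 were called higher and 53 (9.71%) lower, against 5.56% lower among members in no list. The listed members were more strongly expressed, with 43% at 100 or more CPM in WT against 20.1% of the others, and their median fold change was -0.45 against -0.35. Over all members 5.79% were lower and 3.94% higher, and the counts of each list below are to be read beside these shares. At 100 to 300 CPM 11.3% of members were lower, and at 300 CPM or more 22.3%. With TMM over the members alone, 15 of the listed members were lower and 8 higher, the latter being Actb, Arrb1, Cd63, Dock10, Furin, Map4, P2rx4 and Psap. The 15 were Acly, B4galnt1, Ddit4, Ezh1, Gna15, Gpr183, Itpr3, Kcnn4, Pik3ip1, Rasa3, S1pr1, Sostdc1, Spint2, Tspan32 and Txnip, and every other listed member named below as lower was not called there. Upper-quartile scaling gave 16 lower, these 15 and Capg, and 7 higher. Scaled to the T cell markers the balance turned, with 97 listed members higher and 1 lower, Sostdc1, for example 11 of 24 lysosomal and 9 of 17 tubulin and microtubule genes higher. At an unadjusted p under 0.05 edgeR's test gave 12 listed members higher and 210 lower, and DESeq2 at an adjusted p under 0.05 called 6 and 129. None of the 25 lists had a median above 0 under TMM over all genes. List medians ran from -0.67 to -0.18, and none was below the median of the T cell markers.

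**Figure D4:**
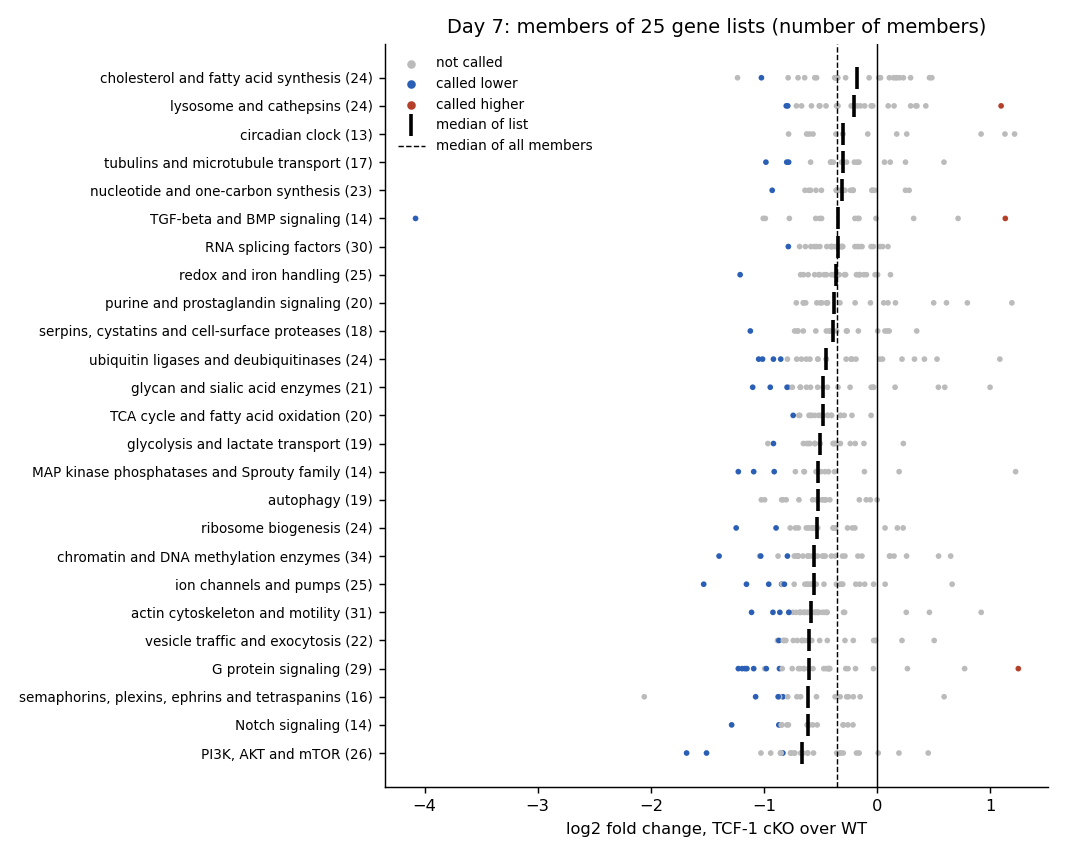
Log2 fold change of TCF-1 cKO over WT for each member of 25 gene lists, with the number of members in brackets, called members in colour and the median of each list as a black bar. The medians lie between -0.67 and -0.18, around the dashed line at the -0.36 of all members.

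G protein signaling, with 29 members and a median of -0.61, had 7 members lower (24.1%, against 5.79% of all members) and 1 higher (3.45%, against 3.94%). Lower were the receptors Gpr183, which follows oxysterols, Gpr132, S1pr1 and S1pr4, which read sphingosine-1-phosphate, together with Gna15, Grk6 and Rgs10. S1pr1, needed to leave lymphoid tissue, stood at 345, 388 and 371 CPM in WT and 196, 189 and 258 CPM in TCF-1 cKO, and Gpr183 at 142, 138 and 129.7 CPM in WT and 64.0, 74.4 and 92.2 CPM in TCF-1 cKO. Neither overlapped, and they fell by 1.17 and 1.23 (adjusted p = 0.0183 for both, edgeR). Gna15, a G protein alpha subunit that couples many receptors to phospholipase C, stood at 212, 207 and 178 CPM in WT and 112, 123 and 118 CPM in TCF-1 cKO (fold change -1.15, adjusted p = 0.0183). S1pr4 had a fold change of -0.98 (adjusted p = 0.0292). Arrb1, a beta-arrestin that ends signaling by receptors, was the member called higher, at 12.4, 11.8 and 8.33 CPM in WT and 41.8, 33.1 and 25.9 CPM in TCF-1 cKO (fold change 1.25, SE 0.35, adjusted p = 0.0448). Under TMM over the members alone Gna15, Gpr183 and S1pr1 remained lower and Arrb1 higher.

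Of 25 ion channels and pumps (median -0.56) 5 were lower (20%, against 5.79% of all members) and 0 higher. Itpr3, an inositol trisphosphate receptor that releases calcium from stores, stood at 47.7, 47.0 and 58.3 CPM in WT and 24.1, 24.9 and 20.7 CPM in TCF-1 cKO (log2 fold change -1.53, SE 0.28, adjusted p = 0.0175, edgeR). Kcnn4, the calcium-activated potassium channel of T cells, stood at 419.9, 324 and 345 CPM in WT and 232, 217 and 198 CPM in TCF-1 cKO (fold change -1.16, SE 0.23, adjusted p = 0.0205). The groups of both were apart, and these 2 were also lower with TMM over the members. The calcium pump Atp2a3, the sodium pump subunit Atp1b3 and the calcium channel Orai2 had fold changes of -0.96, -0.85 and -0.82 (adjusted p = 0.0301, 0.0421 and 0.0463), close to the median of the T cell markers. The groups of Atp1b3 and Orai2 overlapped.

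The list of PI3K, AKT and mTOR genes had the lowest median, -0.67 over 26 members, with 3 lower (11.5%, against 5.79% of all members) and 0 higher. Pik3ip1 and Ddit4 are known to hold the pathway back. Pik3ip1, a membrane protein that inhibits PI3K, stood at 65.3, 55.5 and 78.5 CPM in WT and 14.9, 24.4 and 43.4 CPM in TCF-1 cKO (log2 fold change -1.69, SE 0.34, adjusted p = 0.0205, edgeR). Ddit4, which inhibits mTORC1 under stress, stood at 45.5, 60.0 and 66.8 CPM in WT and 23.7, 23.7 and 31.8 CPM in TCF-1 cKO (fold change -1.51, SE 0.28, adjusted p = 0.0175). Both groups were apart in each, and both genes were lower with TMM over the members. The kinase Akt2 was at -0.83 (adjusted p = 0.0448), and its groups overlapped. In the list of MAP kinase phosphatases, Sprouty genes and Ras inhibitors, 3 of 14 (21.4%) were lower (median -0.52). They were the Ras GTPase activators Rasa3 (-1.09, adjusted p = 0.0235) and Rasal3 (-0.91, adjusted p = 0.0386) and the ERK phosphatase Dusp2 (-1.23, adjusted p = 0.0462).

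Among 34 chromatin and DNA methylation enzymes (median -0.56) 3 were lower (8.82%, against 5.79% of all members) and 0 higher. Ezh1, a methyltransferase of Polycomb complex PRC2 in resting cells, stood at 61.6, 89.2 and 77.1 CPM in WT and 27.2, 52.3 and 34.6 CPM in TCF-1 cKO (log2 fold change -1.40, SE 0.27, adjusted p = 0.0183, edgeR), with no overlap. The deacetylase Hdac7 and the histone H3 lysine methyltransferase Kmt2d were at -1.03 and -0.79 (adjusted p = 0.0282 and 0.0456). Of 24 ubiquitin ligases and deubiquitinases (median -0.45) 4 were lower (16.7%) and 0 higher. They were the NF-kB inhibitor Tnfaip3 (-1.05, adjusted p = 0.0329), the adaptor Klhl6 (-1.01, adjusted p = 0.0269), the deubiquitinase Bap1 (-0.92, adjusted p = 0.029) and Cblb, which limits T cell activation (-0.85, adjusted p = 0.0466). None of the 4 was called with TMM over the members, and the groups of Klhl6 overlapped.

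The cytoskeletal lists had calls lower and 0 higher. In the actin list 4 of 31 (12.9%, against 5.79% of all members) were lower (median -0.59), namely the capping protein gene Capg (-1.11, adjusted p = 0.0244, edgeR), Tmsb10 (-0.92), Wasf2 (-0.86) and Myh9 (-0.78). The groups of Tmsb10 overlapped. Among 17 tubulin and microtubule genes (median -0.31) Kif21b (-0.98), Dctn1 (-0.80) and Mapre2 (-0.78) were lower (17.6%). None of these 7 was called with TMM over the members alone, where Actb and Dock10 of the actin list and Map4 of the microtubule list were called higher instead. Of the 16 semaphorin, plexin, ephrin and tetraspanin genes (median -0.61) Tspan32 (-1.08, adjusted p = 0.0253), Sema4d (-0.88, adjusted p = 0.0355) and Cd37 (-0.83, adjusted p = 0.04) were lower (18.8%). In the Notch list (14 members, median -0.61) the inhibitor Numb (-1.29, adjusted p = 0.04) and the glycosyltransferase Mfng (-0.87, adjusted p = 0.0448) were lower (14.3%). WT replicate 1 of Numb, at 17.3 CPM, was inside the TCF-1 cKO range of 16.3 to 18.9 CPM. Mfng overlapped too, with WT replicate 2 at 107 CPM and TCF-1 cKO replicate 2 at 112 CPM.

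Metabolic lists held few calls, with 5.26%, 5% and 4.35% lower in the first 3 named here against 5.79% of all members. There was 1 lower gene and 0 higher in glycolysis (Hk1, -0.92, adjusted p = 0.037, edgeR, 19 members), in the TCA cycle and fatty acid oxidation (Acaa2, -0.74, adjusted p = 0.0456, 20 members) and in nucleotide synthesis (Cad, -0.93, adjusted p = 0.0391, 23 members). The medians of these 3 lists were -0.505, -0.483 and -0.316, against -0.36 over all members. At an unadjusted p under 0.05 edgeR's test gave 8, 9 and 4 of their members lower and 0 higher. DESeq2 called 2, 4 and 1 lower, against 17.7% of all members. The cholesterol and fatty acid list had the highest median, -0.18 over 24 members. Its called member was Acly, which makes cytosolic acetyl-CoA, at 315, 305 and 254 CPM in WT and 192, 181 and 190.2 CPM in TCF-1 cKO (log2 fold change -1.02, SE 0.22, adjusted p = 0.0229). Acly did not overlap and was lower with TMM over the members too. Of 25 redox and iron genes Txnip, a thioredoxin inhibitor that also restrains glucose uptake, was lower at 320.3, 529.5 and 573 CPM in WT and 257, 229 and 311 CPM in TCF-1 cKO (fold change -1.21, SE 0.25, adjusted p = 0.0209). WT replicate 1 of Txnip was only just above TCF-1 cKO replicate 3.

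In the list of glycan enzymes 3 of 21 members (14.3%, against 5.79% of all members) were lower (median -0.48). B4galnt1, which makes the gangliosides GM2 and GD2, was among the more abundant genes at 1404, 1211 and 1298 CPM in WT and 865, 779 and 759.5 CPM in TCF-1 cKO (log2 fold change -1.10, SE 0.23, adjusted p = 0.0209, edgeR), with no overlap. St6galnac4 (-0.95, adjusted p = 0.0321) and Mgat1 (-0.80, adjusted p = 0.0485) were the others. Spint2, an inhibitor of cell-surface serine proteases, was the called gene of 18 in its list (-1.12, adjusted p = 0.0209). In ribosome biogenesis Rrp12 (-1.25, adjusted p = 0.0324) and Myc (-0.89, adjusted p = 0.0414) were lower of 24 members, in vesicle traffic Rab37 (-0.87, adjusted p = 0.0443) of 22, and in splicing Prpf8 (-0.79, adjusted p = 0.0448) of 30. The calls lower made 8.33%, 4.55% and 3.33% of these lists, and the groups of Rrp12 overlapped. The lists of autophagy (19 members), purine and prostaglandin signaling (20) and the circadian clock (13) had no call in edgeR's test under TMM over all genes, with medians of -0.52, -0.39 and -0.30. At an unadjusted p under 0.05 they had 10, 3 and 1 members lower and 0, 2 and 1 higher, and DESeq2 called 5, 3 and 0 lower and 0, 1 and 1 higher. With TMM over the members 1 purine gene, P2rx4, was higher. Scaled to the T cell markers 1, 7 and 3 members of these lists were higher.

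Listed members called higher under TMM over all genes were 3, against 97 when scaled to the T cell markers. Cd63, a tetraspanin of lysosomes and secretory granules, stood at 16.9, 14.6 and 16.6 CPM in WT and 41.4, 44.2 and 50.3 CPM in TCF-1 cKO, tight within each group (log2 fold change 1.09, SE 0.30, adjusted p = 0.0411, edgeR). The other called lysosomal genes, Ctsa and Ctsw, were lower at -0.80 and -0.79 (adjusted p = 0.041 and 0.0456). Furin, the protease that activates TGF-beta among other precursors, stood at 252, 161.2 and 161.3 CPM in WT and 725, 621 and 318 CPM in TCF-1 cKO (fold change 1.13, SE 0.30, adjusted p = 0.0386). Its groups did not overlap, and Furin and Sostdc1 were the called members of 14 in the TGF-beta and BMP list. Cd63 and Arrb1 lost their calls in all 6 fits with 1 library left out, and Furin was called in 1 of them.

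The 15 named rises were ranked by their smallest fold change over the fits of all 6 libraries and with 1 left out. Their groups had to be apart in CPM, and predicted genes were passed over. Zscan2, at 4.12 over all 6 libraries, was left out by this ranking, with a smallest fold change of 1.82. The 15 were Akr1c18, Syt17, Sh3pxd2b, Myo7a, Nupr1, Epha10, Cracr2b, Kcnma1, Obox3, Kcnmb4, Sbf2, Tmem179, Dnaaf5, Syt15 and Arpp21. Fold changes ran from 2.10 for Dnaaf5 to 3.58 for Akr1c18. Apart from Myo7a they had low levels in WT, with means from 0.641 to 5.99 CPM. All but Myo7a thus entered the members through TCF-1 cKO alone, a way of entry that favours a rise. Many are known from tissues other than T cells: Syt17 and Syt15 are synaptotagmins, Kcnma1 and Kcnmb4 are subunits of the BK potassium channel, Myo7a is a myosin of sensory hair cells and Obox3 is an oocyte homeobox gene.

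Akr1c18, which breaks down progesterone, stood at 0.669, 0.037 and 1.22 CPM in WT and 10.3, 8.21 and 13.3 CPM in TCF-1 cKO (log2 fold change 3.58, SE 0.85, adjusted p = 0.027, edgeR). Its WT libraries were near 0 and its TCF-1 cKO libraries close together. Myo7a stood at 11.6, 46.8 and 11.1 CPM in WT and at 113, 389 and 166 CPM in TCF-1 cKO (fold change 2.91, SE 0.46, adjusted p = 0.00884). Replicate 2 was the highest in both groups. Nupr1, a small stress-induced nuclear protein, stood at 2.37, 3.29 and 1.71 CPM in WT and 16.8, 27.3 and 9.11 CPM in TCF-1 cKO (fold change 2.46, SE 0.53, adjusted p = 0.0229). Sbf2, a phosphoinositide phosphatase relative, stood at 3.77, 4.96 and 2.23 CPM in WT and 19.3, 31.9 and 16.8 CPM in TCF-1 cKO (fold change 2.24, SE 0.46, adjusted p = 0.0209). Dnaaf5, needed to assemble axonemal dynein arms, was the steadiest at 4.06, 7.26 and 6.67 CPM in WT and 35.2, 39.5 and 25.4 CPM in TCF-1 cKO (SE 0.38, adjusted p = 0.0154). In all 5 genes the groups were apart, which the rule that picked them required.

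The order of libraries within the groups was nearly the same across the rises. Of the 389 members called higher, TCF-1 cKO replicate 2 was the highest of its group in 370 (95.1%) and WT replicate 2 in 371 (95.4%). Both held in 363 (93.3%), against 1448 of 8912 members not called (16.2%) and 30 of 572 called lower (5.24%). The summed CPM of 1407 olfactory receptor genes, which T cells are not known to use, took the same order, at 1462, 3135 and 1087 in WT and 4484, 12030 and 6050 in TCF-1 cKO, and 86 of the 621 tested were higher and 0 lower. Olfactory and vomeronasal receptor genes made 133 (34.2%) of the members called higher, 114 (1.28%) of those not called and 0 of those called lower. Processed pseudogenes held 9592 ± 1380 CPM in WT against 18111 ± 5835 CPM in TCF-1 cKO (SD, n = 3). Every TCF-1 cKO library had a larger olfactory receptor sum than every WT library, and the sum includes genes that were themselves called higher. As a covariate it therefore largely overlaps with genotype, and calls lost with it cannot tell the background from genotype. With the olfactory receptor sum as a covariate edgeR called 0 members, with 455 at an unadjusted p under 0.05, and DESeq2 without it called 829 higher. The 81 named genes that were called all lost their calls with the covariate, falls included. Fold changes of the 16 falls then ran from -6.74 to -0.91, with Sostdc1 at -5.08, Tox2 at -2.54 and Rab4a at -2.10. Those of the 15 rises ran from -0.08 for Tmem179 to 6.98 for Akr1c18 (median 1.07), with Dnaaf5 at 1.98 and Myo7a at 0.56. The part of this background in the rises was not tested further.

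**Figure D5:**
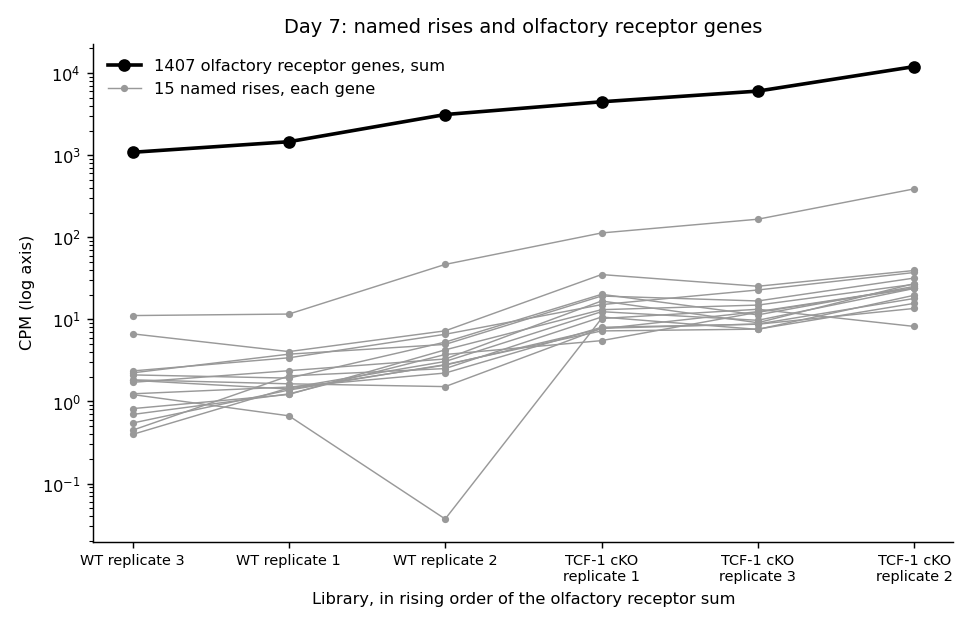
CPM on a log axis of the 15 named rises (grey, 1 line per gene) and the sum of 1407 olfactory receptor genes (black) in the 6 Post-Tx libraries, placed in rising order of that sum. The black line climbs from 1087 in WT replicate 3 to 12030 in TCF-1 cKO replicate 2, and most grey lines climb with it, whereas Akr1c18 is lowest in WT replicate 2.

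Among the members called higher, 56 had a mean of 30 or more CPM in WT, and those named next were picked after their values were seen. Tlr1, which senses bacterial lipopeptides, stood at 31.0, 50.8 and 28.3 CPM in WT and 85.3, 276 and 153 CPM in TCF-1 cKO (log2 fold change 1.82, SE 0.32, adjusted p = 0.015, edgeR). Chek2, a kinase of the DNA damage checkpoint, stood at 138, 347 and 72.6 CPM in WT and 557, 1226 and 550.3 CPM in TCF-1 cKO (fold change 1.70, SE 0.39, adjusted p = 0.026). Tbk1, a kinase of innate sensing, rose by 1.06 (adjusted p = 0.0411). All 3 had replicate 2 as the highest library of both groups, the order of the olfactory receptor sum.

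Outside that order were 26 members called higher. Hemoglobin genes and Alas2, the first enzyme of heme synthesis in erythroid cells, were highest in TCF-1 cKO replicate 1. Hba-a2 stood at 364, 726 and 339 CPM in WT and 2704, 1420.0 and 785 CPM in TCF-1 cKO (log2 fold change 1.45, SE 0.36, adjusted p = 0.0328, edgeR). Without TCF-1 cKO replicate 1 the fold change of Hba-a2 was 0.74 (adjusted p = 0.118), and it was called in 2 of the 6 fits with 1 library left out. Another group encodes basophil products and was named after its values were seen. The basophil protease genes Mcpt8 and Prss34 stood at 34.8, 7.92 and 34.4 CPM and at 129, 25.8 and 86.0 CPM in WT. In TCF-1 cKO they stood at 92.1, 97.0 and 101 CPM and at 264, 303 and 329 CPM, above all WT libraries (fold changes 1.47 and 1.44, adjusted p = 0.0426 and 0.0414). Without WT replicate 2, the lowest library of both genes, they were 0.99 and 0.96 (adjusted p = 0.0351 and 0.0326). Mcpt8 was called in 2 and Prss34 in 3 of the 6 fits with 1 library left out, with adjusted p up to 0.178 and 0.18 without TCF-1 cKO replicate 2. Gata2, a factor of basophils, mast cells and progenitors, entered the members through TCF-1 cKO alone. It rose by 1.84 (adjusted p = 0.0458) and was called in 1 of those 6 fits. Its fold change was 1.31 (adjusted p = 0.152) without TCF-1 cKO replicate 1. Of 10 genes of basophils and mast cells looked at, these 3 were called, whereas Cpa3, Fcer1a, Cd200r3 and Ms4a2 had fold changes from 1.09 to 2.30 and adjusted p from 0.0945 to 0.225, and Hdc, Il4 and Kit from 0.01 to 0.30. Ifi208, of the interferon-inducible AIM2-like family, stood at 15.6, 25.0 and 12.8 CPM in WT and 58.8, 67.8 and 83.8 CPM in TCF-1 cKO (fold change 1.61, SE 0.30, adjusted p = 0.0175), with TCF-1 cKO replicate 3 the highest.

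Levels before transplant are given for the 15 named falls and 15 named rises as a description with no test, from libraries that differ from those of day 7 in host and cell state. The share of all members whose Pre-Tx groups lie apart was not counted, so the counts below have no share to be read beside. The olfactory receptor sum was not taken in the Pre-Tx libraries either. Of the falls, 5 had all TCF-1 cKO Pre-Tx libraries below all WT Pre-Tx libraries, 2 had them above and 8 overlapped. Tox2 was at 0.0994 to 1.38 CPM in TCF-1 cKO and 3.11 to 11.9 CPM in WT. Matk was at 22.2 to 35.5 and 60.2 to 83.6 CPM, in the same order of groups. The groups lay the same way in Rab4a, at 2.88 to 4.36 and 9.13 to 13.6 CPM. Sdcbp2 was at 2.49 to 9.59 CPM in TCF-1 cKO and 11.7 to 16.8 CPM in WT, and Sostdc1 was low in both at 0.39 to 0.838 and 2.12 to 3.52 CPM. Cnbd2 and Marveld2 lay the other way, Cnbd2 at 25.2 to 38.4 CPM in TCF-1 cKO and 9.68 to 13.3 CPM in WT. Id3 overlapped before transplant, at 219.5 to 349 CPM over all 6 libraries. Of the rises, 8 had all TCF-1 cKO Pre-Tx libraries below all WT Pre-Tx libraries, opposite to day 7, and 7 overlapped. Syt17 was at 0.838 to 1.56 CPM in TCF-1 cKO and 3.62 to 11.7 CPM in WT.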

How the data were processed

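From total RNA the authors made cDNA (SMARTseq HT) and Nextera XT libraries, sequenced them on a NovaSeq instrument and ran kallisto 0.46.2, and the labels name mm9 as the build. Per the file headers, the deposited files give an estimated count and a TPM value per transcript, with no further normalization. The sources used here do not name the transcript set, and the authors' later voom and limma values were not used.

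Of 117497 transcripts 116428 were matched by identifier to GENCODE M21 (GRCm38), their estimated counts were summed over 35907 genes and rounded, and TPM were used only to compare levels between genes. In the 6 Post-Tx libraries, edgeR 4.0.16 (R 4.3.3) gave TMM factors, its filter on low counts and the quasi-likelihood test, with Benjamini-Hochberg adjustment over all genes tested. Standard errors (SE) were obtained from each fold change and the root of its F statistic. limma 3.58.1 (voom) and DESeq2 1.42.0 were alternatives, beside other scalings, no filter, all 12 libraries, a replicate block, an olfactory receptor covariate and each of the 6 libraries left out. The fits were tested on simulated data. Figures used Python 3.11.15 and matplotlib 3.10.9.

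The named genes are, by rule, the 15 called members in each direction with the largest smallest fold change over the fits of all 6 libraries and with 1 left out. They had to have groups apart in CPM, and the 3 lists not described and predicted genes were passed over. Each list contributes the 4 called members of lowest adjusted p, or all where 5 or fewer were called. Other genes were named after their values were seen. Results for some genes are not reported here. The members and lists were chosen with earlier results of these data known.

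Residual correlations between same-numbered libraries were 0.0093, 0.284 and 0.116, so that replicate numbers were not taken to pair the samples. No library was a copy of another. The limit on precision is the number of libraries, 3 in each group.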

Additional observations from a re-analysis of the deposited data

How the results depend on the processing

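Against 389 members higher and 572 lower, DESeq2 size factors in edgeR, a mean of 20 CPM and a mean over all 6 libraries kept both counts within 1.5 times. Calls higher were 2177 when scaled to T cell markers, 0 with the olfactory receptor covariate, 19 with all 12 libraries, 757 with voom and limma, and 829 with DESeq2. Calls lower were 104 under upper-quartile scaling, 98 with TMM over the members, 19 scaled to T cell markers, 964 with no filter, 0 with the covariate, 88 with all 12 libraries, 1222 with voom, 1745 with DESeq2 and 258 at a log2 fold change of 1 or more in size. No call was counted with the covariate, which itself separates the genotypes, and 455 members had an unadjusted p under 0.05 there. Leaving out 1 library gave 0 to 767 calls higher and 3 to 1207 lower. The members' median of -0.36 was -0.0773 under upper-quartile scaling, -0.0442 with TMM over the members and 0.49 scaled to T cell markers. The causes were not tested.

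With the replicate block 787 members were higher and 1721 lower. By the check made the numbers were not taken to pair the libraries, since 1 of 3 correlations was under 0.1. That check does not show that the numbers share no effect, and 2 of 3 numbers correlated best with their own.

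Among 82 named genes, Tmem179 turned to -0.0836 with the olfactory receptor covariate. Scaled to the T cell markers, 17 turned positive: Acaa2 0.10, Wasf2 7.4e-05, Myh9 0.0923, Dctn1 0.0586, Mapre2 0.0431, Mgat1 0.0789, Akt2 0.0344, Mfng 0.021, Kmt2d 0.0659, Cblb 0.0106, Rab37 0.0053, Ctsa 0.0621, Ctsw 0.0901, Cd37 0.042, Orai2 0.0263, Prpf8 0.0615 and Tcf7 0.19. Of the 82, 37 were no longer called under upper-quartile scaling, 39 with TMM over the members and 79 without TCF-1 cKO replicate 2, and all 81 that were called lost their calls with the covariate. The TCF-1 cKO libraries hold fewer counts than the WT libraries, so that low genes are measured less precisely in them.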
